A study of Mus musculus with 11 samples.

Results

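Tetraspanins are small membrane proteins that cross the membrane repeatedly and gather integrins, immunoglobulin-type proteins and proteases into patches of the cell surface. The genes described here are Cd9, Cd63, Cd81, Cd82, Cd151, Tspan2, Tspan3 and Tspan7, 8 tetraspanin genes studied in cells that make myelin. Every probe set that the platform annotation gives to exactly 1 of them was taken, which gave 14 of the 45101 probe sets on the array. These 14 belonged to 6 of the 8 genes, and 11 of them were bright enough to be tested. Cd63 and Tspan7 had no probe set of exactly 1 gene in that annotation and were not analysed here.

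The study measured RNA from cultures of mouse oligodendrocyte lineage cells on 11 Affymetrix Mouse Genome 430 2.0 arrays. Knockout oligodendrocytes (MRF fl/fl; Olig2 wt/cre, 3 arrays) could lose both copies of Myrf, written MRF in the labels, which encodes a membrane-bound transcription factor of myelinating cells. Control oligodendrocytes (MRF wt/fl; Olig2 wt/cre, 4 arrays) came from littermates that carried the same Cre allele and 1 floxed copy. Both were differentiated over 4 days by taking PDGF away and adding T3, a thyroid hormone, at 40 ng/ml. Progenitors (4 arrays) were grown in 10 ng/ml PDGF over 6 days; the labels call them control without giving alleles. Brains at postnatal day 7 were the source of all cells, which were panned on antibody to PDGFRα once microglia had been depleted. The Cre gene sits in Olig2, so recombination can occur in any cell that has expressed Olig2. The labels do not say whether replicates came from separate animals or cultures, so every p-value given here reflects only how far these arrays scatter, which may be technical.

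In oligodendrocytes tetraspanins sit in the plasma membrane, in endosomes and in myelin. Tspan2 is a tetraspanin found mostly in oligodendrocytes and their myelin, and Tspan3 forms a complex with claudin 11 and integrin β1 in these cells. Cd9 and Cd81 are close relatives that bind immunoglobulin-type partners, and Cd81 is also known from astrocytes. Cd82 is a surface tetraspanin known for holding back cell migration, and Cd151 is the partner of laminin-binding integrins.

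Myrf itself gave signals of 2848.6, 1904.4 and 2223.4 on the knockout arrays, against 7374, 6613.5, 7517.4 and 6215 on the control arrays. Whether its probe set lies in the deleted part of the gene was not determined. Progenitor replicate 2 read 6848.4 for Myrf, while the other 3 progenitor arrays read 752.1 to 1135. The ratio of the 5′ to the 3′ probe set of Gapdh, a measure of RNA integrity and amplification, was 1.26 to 1.41 in both oligodendrocyte groups. Progenitor replicates 1 to 4 had ratios of 0.332, 1.23, 1.15 and 0.12, so replicates 1 and 4 stood apart. The labelled cell types were checked against their markers. Oligodendrocyte markers summed to 45838 to 55305 on knockout arrays, 82020 to 102817 on control arrays and 15066 to 57546 on progenitor arrays, where replicate 2 was again the highest. Progenitor markers summed to 29333 to 32281, 15200 to 22805 and 42236 to 51249 on the same 3 sets of arrays. Cell cycle genes summed to 6664.9 to 8308.1 on knockout and 9954 to 21928.5 on control arrays. On progenitor replicates 1 to 4 they summed to 85678, 24228, 106601 and 106755, so replicate 2 was the lowest. Progenitor values given below without replicates 1 and 4 rest on replicates 2 and 3. The summed signal of 13 astrocyte markers was 100083 to 112034 on knockout arrays, 67635 to 93823 on control arrays and 6447 to 11190 on progenitor arrays. Of the 10 microglia markers none passed the filter, with a highest signal of 152.2. Of 3 measured markers of mural cells and fibroblasts 2 were higher in knockout than in control oligodendrocytes, where 3.64% of all genes were higher. Sums over all 10 listed were 4753 to 8321 in knockout and 1006 to 2901 in control oligodendrocytes. In bulk RNA, fewer cells of a type and less RNA per cell cannot be told apart.

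Of the 6 measured tetraspanins, each taken by its brightest probe set, Tspan2 alone passed the test between knockout and control oligodendrocytes, and it was lower in the knockout. The difference was 3.43-fold on the brightest probe set and up to 5.25-fold on the others. Cd9, Cd81, Cd82, Cd151 and Tspan3 did not pass the test. Across all 10069 genes tested 7.53% passed in this comparison, 3.64% higher and 3.88% lower in the knockout, and the median difference was 0.02 (log2) for the 6 tetraspanins and 0.03 for all genes.

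Tspan2 had signals of 4400.3, 3283.8 and 3293.7 on its brightest probe set in knockout oligodendrocytes. The same probe set read 14409.1, 11601.5, 14699.6 and 9885 in control oligodendrocytes, and 344.3, 1595, 1192.6 and 304.1 in progenitors. The groups did not overlap, and the knockout arrays lay between the progenitor and the control arrays. Of all genes tested 31.6% showed no overlap between knockout and control oligodendrocytes. Means were 3659 ± 642 (SD, n = 3) in knockout oligodendrocytes, 12649 ± 2312 (SD, n = 4) in control oligodendrocytes and 859 ± 639 (SD, n = 4) in progenitors. In limma on log2 of the signal plus 16, knockout minus control was -1.78 ± 0.49 (SE, adjusted p = 0.0462). The 95% interval of that difference ran from -2.84 to -0.72, and 1.79% of the genes tested had a lower value. The call was close to the threshold in the fit with 1 spread for all groups. With only knockout and control arrays the adjusted p was 0.000257, and without progenitor replicates 1 and 4 it was 0.000505. Of the 21 alternatives 11 kept it, and leaving out any 1 of the 7 oligodendrocyte arrays ended it, with adjusted p between 0.0631 and 0.165, while the log2 difference stayed between -2.07 and -1.70 in all 21. With the replicate number as a block, which uses only these 2 groups and drops control replicate 4, the adjusted p was 0.000551 in limma.

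The other probe sets of Tspan2 showed the same order of groups with less spread in the progenitors. Probe set 1432417_a_at read 1326.8, 1332.5 and 1123.3 in knockout and 8006.6, 6440.8, 7966 and 4796.8 in control oligodendrocytes. On 1424568_at the signals were 1875.4, 1350 and 1619.7 in knockout and 6708.2, 5649.2, 9725.1 and 5312.7 in control oligodendrocytes. On both, each knockout array lay below each control array. Among all 17121 probe sets tested, of which 5.54% passed (2.41% higher, 3.13% lower) and 29.4% showed no overlap, limma gave a knockout minus control difference of -2.39 ± 0.30 (SE, adjusted p = 0.000641) for 1432417_a_at. For 1424568_at it gave -2.04 ± 0.29 (SE, adjusted p = 0.00169), and both calls held in all 20 alternatives run on probe sets. In that fit the brightest probe set, 1424567_at, had an adjusted p of 0.0608, and of 0.000543 with the replicate block.

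**Figure D1:**
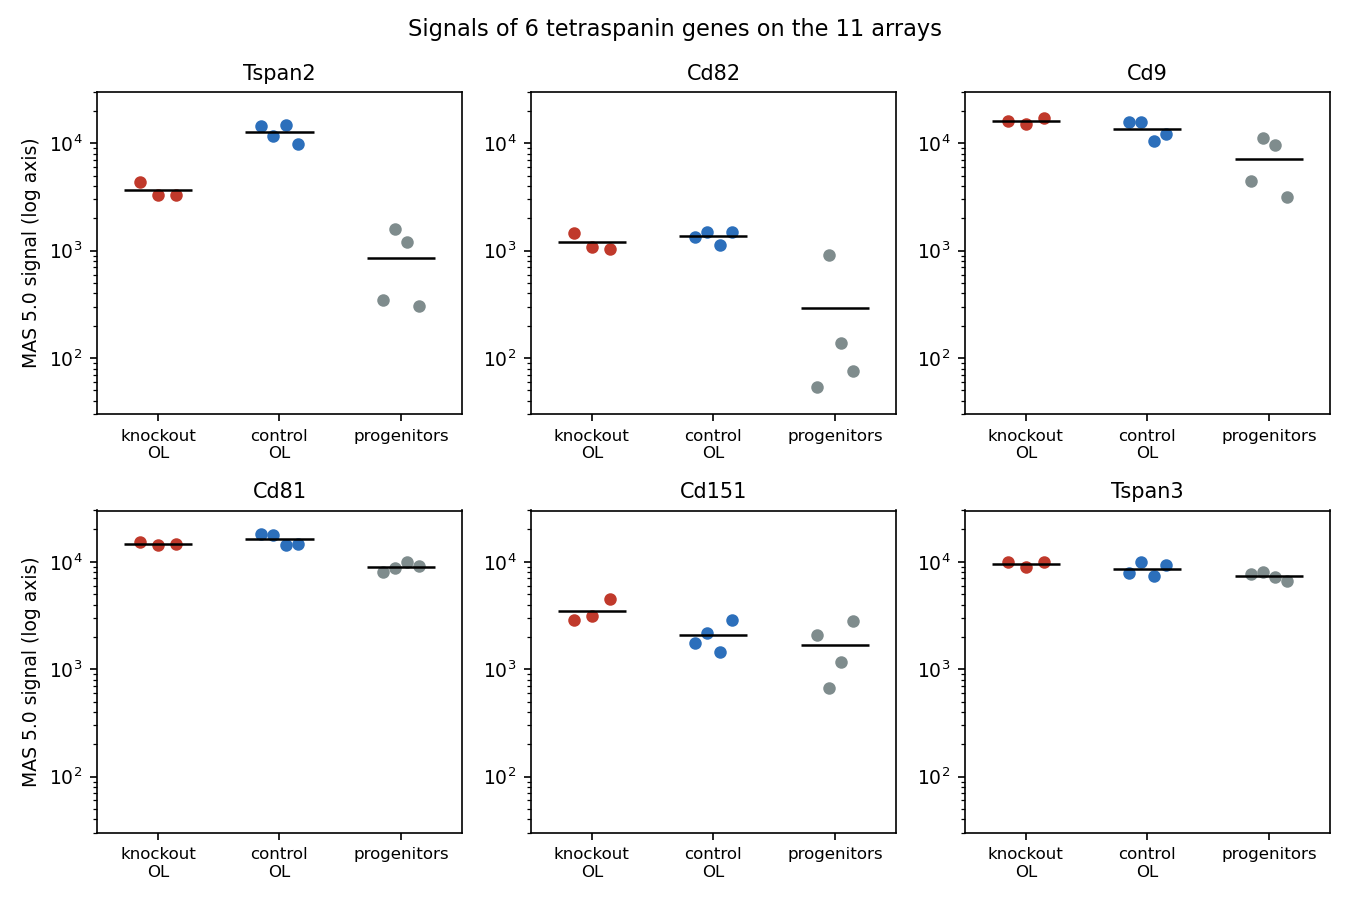
MAS 5.0 signal (log axis) of the 6 measured tetraspanin genes on each array, with a point per array and a line at the group mean, for knockout oligodendrocytes (OL), control oligodendrocytes and progenitors, each gene by its brightest probe set. Tspan2 separates all 3 groups, and Cd82 in progenitors spans 53.3 to 909.4.

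Tspan3, which is joined to claudin 11 in oligodendrocyte membranes, differed least over the 3 comparisons, with a largest log2 difference of 0.38. It read 10017.5, 8881.7 and 9984.2 in knockout oligodendrocytes, against 7883.9, 10035.7, 7372.8 and 9320.5 in control oligodendrocytes. The 2 groups overlapped, and limma gave 0.16 (95% interval -0.14 to 0.46, adjusted p = 0.554). Its partner Cldn11, the tight junction protein of myelin, averaged 11992 ± 2043 (SD, n = 3) in knockout and 14930 ± 552 (SD, n = 4) in control oligodendrocytes, a difference of -0.33 that did not pass in limma (adjusted p = 0.655).

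Cd9 read 16206.7, 15139.2 and 17204.7 in knockout oligodendrocytes, against 15785.6, 15781.9, 10496.7 and 12312.7 in control oligodendrocytes. 2 of the knockout arrays lay above all control arrays and the remaining one lay within their range. The log2 difference of 0.27 (95% interval -0.52 to 1.06) did not pass in limma (adjusted p = 0.729). Cd81 read 15431.8, 14217.5 and 14624.1 in knockout oligodendrocytes, against 18287.7, 17861.9, 14291.7 and 14532.3 in control oligodendrocytes. Control replicates 1 and 2 were above every knockout array, and the other control arrays were not. The difference was -0.13 (95% interval -0.41 to 0.15, adjusted p = 0.62 in limma).

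Cd82 read 1470.3, 1088.6 and 1026 in knockout oligodendrocytes, against 1338.2, 1507.1, 1137.9 and 1478.6 in control oligodendrocytes. The groups overlapped, and the difference of -0.20 did not pass in limma (adjusted p = 0.908). Its 95% interval of -1.64 to 1.24 rests on 1 spread shared by all groups, and the progenitors differed widely among themselves. Fitted with only the arrays of knockout and control oligodendrocytes, the interval was -0.58 to 0.18. A missed threshold does not show that the levels of these genes were equal.

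Cd151 was measured by 4 probe sets that passed the filter, and they did not give the same call. On the brightest, 1437670_x_at, the signals were 2879.4, 3125.6 and 4533.7 in knockout oligodendrocytes. They were 1739.9, 2182.8, 1445.8 and 2883.5 in control oligodendrocytes, so the lowest knockout array lay just under the highest control array. The difference was 0.78 (95% interval -0.12 to 1.69, adjusted p = 0.306 in limma). Fitted with only the arrays of knockout and control oligodendrocytes, the interval was 0.23 to 1.34, and the adjusted p of 0.0616 in limma did not pass. With the replicate number as a block, which drops control replicate 4, the difference was 0.96 with an adjusted p of 0.0293 in limma. In the fit of all groups without control replicate 4 the difference was also 0.96 (adjusted p = 0.248 in limma). On 1451232_at the signals were 1830.7, 2444.8 and 2374 in knockout and 1172.8, 1225.2, 873.9 and 1480.8 in control oligodendrocytes. Here every knockout array was above every control array. The log2 difference was 0.90 ± 0.23 (SE, adjusted p = 0.0439 in limma over probe sets), which held in 12 of the 20 alternatives, with adjusted p up to 0.188. The other 2 probe sets differed by 0.78 on 1424093_x_at (adjusted p = 0.0733) and 0.75 on 1456085_x_at (adjusted p = 0.305) in limma, and neither showed overlap between the 2 groups. With the replicate block these were 0.91 (adjusted p = 0.021) and 0.94 (adjusted p = 0.0168) in limma. Cd151 is also present in cells of the mural and fibroblast type, whose markers were higher in the knockout arrays as given above. Their part in these values was not tested.

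**Figure D2:**
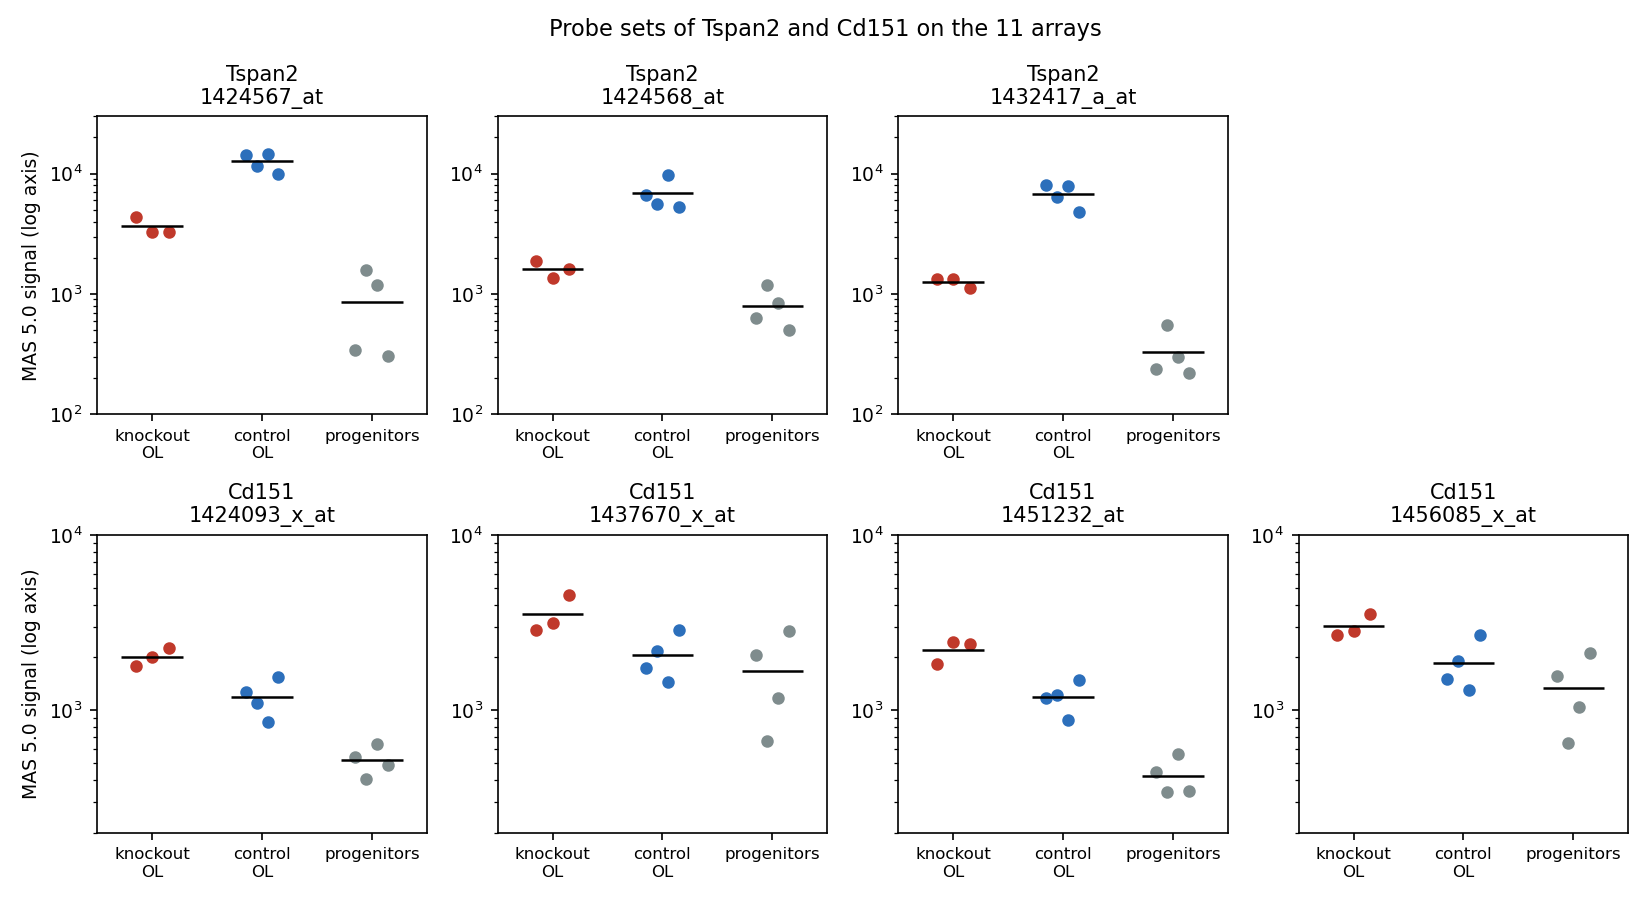
MAS 5.0 signal (log axis) of the 3 probe sets of Tspan2 and the 4 of Cd151 that passed the filter, with a point per array and a line at the group mean (OL, oligodendrocytes). All 3 probe sets of Tspan2 order the groups alike, while progenitor replicates 1 and 4 are high for Cd151 on 1437670_x_at and 1456085_x_at and not on the others.

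Between control oligodendrocytes and progenitors 4 of the 6 tetraspanins were higher in the oligodendrocytes: Tspan2 18.2-fold, Cd82 7.92-fold, Cd9 2.14-fold and Cd81 1.81-fold. None was lower, and Tspan3 and Cd151 did not pass. Over all genes 54% passed in this comparison, 24.4% higher and 29.6% lower in control oligodendrocytes, and the median difference was 0.98 for the 6 genes and -0.09 for all genes. For Tspan2, Cd82 and Cd81 every control array was above every progenitor array, as was the case for 20.1% of all genes. The control arrays of this comparison are those of the comparison with the knockout, so the 2 are not independent.

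For Tspan2 the difference between control oligodendrocytes and progenitors was 4.18 ± 0.45 (SE, adjusted p = 2.52e-05 in limma), and it was 3.16 without progenitor replicates 1 and 4. The progenitor arrays read 237.6, 553.9, 298.8 and 220.3 on its probe set 1432417_a_at, which gave 4.37 (adjusted p = 7.25e-07 in limma over probe sets, of which 27.4% were called higher). All of them lay below the oligodendrocyte arrays. Cd81 read 8038.2, 8656.5, 9944.6 and 9194.7 in progenitors, below every oligodendrocyte array. Its difference of 0.85 ± 0.12 (SE, adjusted p = 0.000153 in limma) had the smallest error of the 6 and held in all 21 alternatives. Cd82 read 53.3, 909.4, 136.9 and 76.4 in progenitors. Replicate 2 was thus the high array, as it was for Myrf, and it still lay under every oligodendrocyte array. The difference of 2.98 ± 0.61 (SE, adjusted p = 0.0018 in limma) was 3.79 without replicate 2 and 1.87 without replicates 1 and 4.

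Cd9 was the one of the 4 whose call was lost in some of the 21 alternatives. Its progenitor signals were 4431.3, 11123.6, 9712.7 and 3180, and replicate 2 overlapped the control oligodendrocytes. The difference of 1.10 ± 0.34 (SE, adjusted p = 0.0163 in limma) was 0.93 without progenitor replicate 1 (adjusted p = 0.0519). Without replicates 1 and 4, the arrays with low Gapdh ratios, it was 0.37 (adjusted p = 0.111). The call was kept without any other single progenitor array. The difference was 1.37 without replicate 2 (adjusted p = 0.00164 in limma), 1.31 without replicate 3 (0.00908) and 0.77 without replicate 4 (0.0381). Tspan3 read 7687.2, 7984.4, 7281.1 and 6666.2 in progenitors, and control oligodendrocytes differed from them by 0.22 (95% interval -0.06 to 0.50, adjusted p = 0.172 in limma).

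For Cd151 the probe sets again differed in the comparison of control oligodendrocytes with progenitors. The brightest read 2063.1, 669.2, 1166.9 and 2813.8 in progenitors and gave 0.44 (adjusted p = 0.344 in limma), and 1.16 (adjusted p = 0.016) without replicates 1 and 4. Probe set 1451232_at read 443.9, 343.3, 558.9 and 347.8 in progenitors, below every control array, and gave 1.46 (adjusted p = 0.000272 in limma over probe sets). Averaging the probe sets of the gene gave 0.90 with an adjusted p of 0.0083. Astrocyte markers moved with this comparison: 11 of 12 measured passed the test with higher signals in control oligodendrocytes, where 24.4% of all genes were higher. Of these markers Gfap, the astrocyte filament protein, averaged 15744 ± 1100 in control oligodendrocytes and 80.7 ± 16.8 in progenitors (SD, n = 4 each). The part of astrocytes in the rise of Cd9, Cd81 and Cd82 was not tested.

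All 6 tetraspanins were higher in knockout oligodendrocytes than in progenitors, and for all 6 the arrays did not overlap. Over all genes 50.6% passed in this comparison and 23.8% were higher in the knockout oligodendrocytes, while 23.5% showed no overlap with the knockout arrays higher. This comparison shares its arrays with the other 2. Tspan2 was 5.29-fold higher (log2 2.40 ± 0.49, SE, adjusted p = 0.00176 in limma), and Cd82 was 6.89-fold higher (2.79 ± 0.66, adjusted p = 0.00454). Cd9 differed by 1.37 ± 0.36 (adjusted p = 0.00835) and Cd81 by 0.72 ± 0.13 (adjusted p = 0.000806) in the same limma fit. Without progenitor replicates 1 and 4 the difference was 1.38 for Tspan2, 1.67 for Cd82 and 0.64 for Cd9. Cd151 was 2.34-fold higher on the brightest probe set (adjusted p = 0.0272 in limma, kept in 17 of 21 alternatives). The call ended with only the 2 compared groups in the fit (adjusted p = 0.053), without knockout replicate 2 (adjusted p = 0.0575), knockout replicate 3 (0.104) or progenitor replicate 3 (0.0625). Its probe set 1451232_at was 5.14-fold higher (adjusted p = 2.14e-05 in limma over probe sets, of which 27% were called higher), a call kept in all 20 alternatives. Tspan3 was 1.30-fold higher (adjusted p = 0.0381 in limma), a call kept in 9 of 21 alternatives with adjusted p up to 0.172. Of the 12 measured astrocyte markers 11 were also higher here, against 23.8% of all genes, with Gfap at 16237 ± 792 (SD, n = 3) in knockout oligodendrocytes. Their part was not tested. Between knockout and control oligodendrocytes none of the 12 passed in the main fit. With the replicate block 7 were higher in the knockout, where 2237 of all 10069 genes passed.

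**Figure D3:**
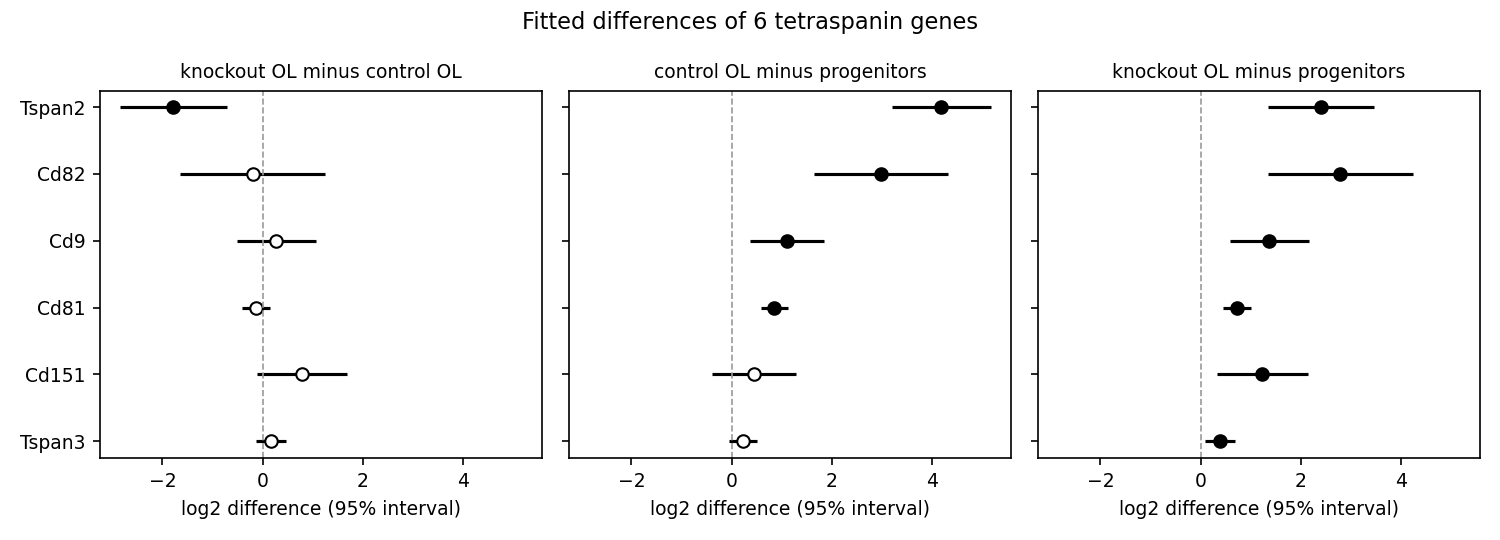
Fitted log2 differences of the 6 genes with 95% intervals in the 3 comparisons (OL, oligodendrocytes), filled where the adjusted p was at most 0.05 in limma. Tspan2 is the filled point of the comparison of knockout with control oligodendrocytes, 4 points are filled for control oligodendrocytes against progenitors and all 6 for knockout oligodendrocytes against progenitors.

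An exact permutation test of the mean log2 signal, two-sided, was run for the 6 genes in the 3 comparisons, 18 tests in all. The smallest p it can give is 0.0571 for 3 arrays against 4 and 0.0286 for 4 against 4. It reached 0.0571 for Tspan2 between knockout and control oligodendrocytes, and 0.0286 for Cd81, Cd82 and Tspan2 between control oligodendrocytes and progenitors. Cd9 gave 0.0571 in that exact comparison, and all 6 gave 0.0571 between knockout oligodendrocytes and progenitors. After adjustment over the 18 exact tests the lowest value was 0.0935. Given the smallest p each test can reach, no adjusted value under 0.05 was possible, so the adjusted values decide nothing here.

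The promoters of the 4 genes with higher signals in control oligodendrocytes than in progenitors are shown because these genes moved together there, while Tspan2 alone passed between knockout and control. Each sequence is the 250 bases before the annotated start of the gene, 5′ to 3′ on the gene's strand, from RefSeq on GRCm38.p6, with motif matches in capitals. The search covered both strands and 6 motifs. For Myrf a loose pattern, CTGGNAC with N as any base, was searched, so a match need not be the motif reported for Myrf. The GC box, bound by Sp factors, was GGGCGG. The TATA box, which places the start of transcription, was TATAAA. The E box, bound by helix-loop-helix factors, was CAGCTG. The motif of Sox factors was ACAAAG. The half-site of nuclear receptors, among them that for thyroid hormone, was AGGTCA. No matches overlapped. The windows are chr3:102734520-102734769 on the plus strand for Tspan2, chr2:93462951-93463200 on the minus strand for Cd82, chr7:143052500-143052749 on the plus strand for Cd81 and chr6:125494761-125495010 on the minus strand for Cd9.
Tspan2: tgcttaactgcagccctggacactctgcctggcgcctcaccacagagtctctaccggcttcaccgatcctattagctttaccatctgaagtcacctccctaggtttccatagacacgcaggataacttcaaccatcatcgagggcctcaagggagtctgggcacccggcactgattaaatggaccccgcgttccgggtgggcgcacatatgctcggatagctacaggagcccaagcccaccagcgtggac
Cd82: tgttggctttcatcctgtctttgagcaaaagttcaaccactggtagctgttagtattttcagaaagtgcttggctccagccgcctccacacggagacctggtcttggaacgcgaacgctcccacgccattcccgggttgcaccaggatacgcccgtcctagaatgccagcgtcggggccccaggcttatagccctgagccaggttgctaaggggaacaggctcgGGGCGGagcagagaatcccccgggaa
Cd81: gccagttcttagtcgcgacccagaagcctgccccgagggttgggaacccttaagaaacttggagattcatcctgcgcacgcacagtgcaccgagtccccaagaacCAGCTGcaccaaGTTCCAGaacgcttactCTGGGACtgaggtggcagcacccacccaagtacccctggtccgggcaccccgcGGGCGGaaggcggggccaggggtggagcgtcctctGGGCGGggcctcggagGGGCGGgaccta
Cd9: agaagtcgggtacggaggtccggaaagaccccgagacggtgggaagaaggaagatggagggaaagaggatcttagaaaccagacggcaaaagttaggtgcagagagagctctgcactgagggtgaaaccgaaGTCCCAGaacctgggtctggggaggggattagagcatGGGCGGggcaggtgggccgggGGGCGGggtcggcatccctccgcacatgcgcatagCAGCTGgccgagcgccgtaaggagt

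Tspan2, the member that was lower in the knockout, had no match to any of the 6 motifs in this window. Cd82 had 1 GC box. Cd81 had 2 matches to the loose Myrf pattern, 3 GC boxes and 1 E box. Cd9 had 1 match to that pattern, 2 GC boxes and 1 E box. In these matches to the loose pattern the base at N was A or G, read on the strand of the match. Among 27025 promoter windows of the same length in the RefSeq table, 15.9% held the loose Myrf pattern, 33.0% the GC box and 12.7% the E box. The TATA box was held by 13.0%, the Sox motif by 16.5% and the half-site by 13.8%. These are letter matches in a short window and say nothing of binding.

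Outside the 8 genes, 23 other tetraspanin genes were listed, and 13 passed the filter on dim probe sets. Between knockout and control oligodendrocytes 3 of the 13 were lower in the knockout and none was higher in limma. Of all genes 3.88% were lower and 3.64% higher. At an unadjusted p under 0.05 in limma 3 of the 13 were lower and 1 higher, a count without a share of all genes beside it. With the replicate number as a block the counts were 3 lower and 4 higher, where 2237 of all 10069 genes passed, 58.4% of them higher. The median difference was -0.05, against 0.03 for all genes. Tspan14, which like Tspan5 escorts the protease Adam10 to the cell surface, read 1360.7, 1366.1 and 913.8 in knockout oligodendrocytes and 2814.1, 2446.6, 2952.9 and 2055.5 in control oligodendrocytes. Every knockout array was lower, by -1.08 ± 0.20 on the log2 scale (SE, adjusted p = 0.00609 in limma), and the call held in all 21 alternatives.

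Tspan5 averaged 493 ± 73.1 in knockout oligodendrocytes (SD, n = 3) and 1107 ± 190 in control oligodendrocytes (SD, n = 4). Its difference of -1.14 (adjusted p = 0.0461 in limma) passed in 9 of 21 alternatives, with adjusted p up to 0.195, and was lost without any 1 of the 7 oligodendrocyte arrays. Tspan9, known from platelets, averaged 661 ± 63.6 in knockout and 1668 ± 771 in control oligodendrocytes, and its difference of -1.22 (adjusted p = 0.0221 in limma) was lost without any 1 of the 3 knockout arrays, at 0.0628 to 0.0971. Adam10 itself gave a difference of -0.19 that did not pass in limma (adjusted p = 0.591).

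**Figure D4:**
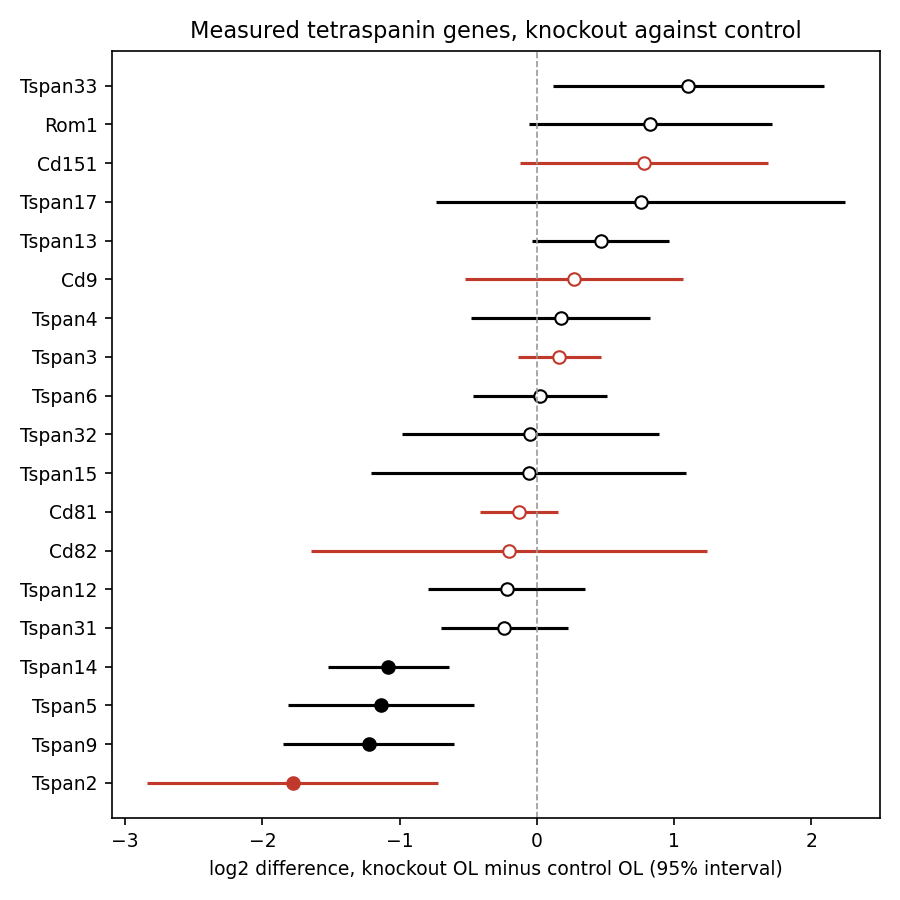
Fitted log2 differences, knockout minus control oligodendrocytes (OL), with 95% intervals for the 19 tetraspanin genes that passed the filter, the 6 described here in red and the 13 others in black, filled where the adjusted p was at most 0.05 in limma. Tspan2, Tspan9, Tspan5 and Tspan14 are the filled points, all below 0.

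Between control oligodendrocytes and progenitors 8 of the 13 other tetraspanins were higher and 2 lower in the oligodendrocytes, where 24.4% of all genes were higher and 29.6% lower, with a median difference of 0.65 against -0.09 for all genes. Tspan17 averaged 1977 ± 391 in control oligodendrocytes and 335 ± 465 in progenitors (SD, n = 4 each). That is a difference of 3.34 (adjusted p = 0.00109 in limma), and 4.15 without progenitor replicate 2, which read 1027.5 where the other progenitor arrays read 65.7 to 181.2. Without progenitor replicates 1 and 4 it was 2.11. Tspan15 differed by 2.72 (adjusted p = 0.000773 in limma), and by 1.85 without those replicates. Rom1, known from photoreceptor discs, was dim in both groups, at 82.9 to 162.8 in control oligodendrocytes and 4.9 to 52.8 in progenitors. It passed the filter only through the knockout arrays, so no fold is given, though the 8 higher genes counted above include it. Tspan13 was lower in control oligodendrocytes, at 1904 ± 567 against 5667 ± 1019 in progenitors (SD, n = 4 each), a difference of -1.59 (adjusted p = 0.000113 in limma). Tspan33 differed by -1.07 (adjusted p = 0.0477 in limma), kept in 10 of 21 alternatives, and by -0.54 without progenitor replicates 1 and 4.

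Of 24 listed partners and modifiers of tetraspanins 21 passed the filter. Between knockout and control oligodendrocytes 3 were higher and 1 lower in the knockout, where 3.64% of all genes were higher and 3.88% lower. With the replicate block 5 were higher and 4 lower, where 2237 of all 10069 genes passed, 58.4% of them higher. Prkca, a protein kinase C that binds tetraspanins, read 4950.4, 3796.7 and 4486.7 in knockout and 1740.4, 2087.2, 857.2 and 1867.5 in control oligodendrocytes. The knockout arrays were all higher, by 1.49 ± 0.27 (SE, adjusted p = 0.00506 in limma), and the call held in all 21 alternatives. Ptgfrn, an immunoglobulin-type partner of Cd9 and Cd81, read 659.5, 599.2 and 506.5 in knockout and 267.8, 276.1, 93.6 and 264.2 in control oligodendrocytes. Its difference of 1.42 (adjusted p = 0.0202 in limma) was lost without any 1 of the 3 knockout arrays, at adjusted p of 0.0521 to 0.093. Zdhhc2, which in human cells attaches palmitate to Cd9 and Cd151, was higher by 0.86 (adjusted p = 0.0492), and the integrin subunit Itgb8 differed by -0.71 (adjusted p = 0.0494) in limma, each kept in 9 of 21 alternatives.

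Between control oligodendrocytes and progenitors 11 of the 21 partners were higher and 2 lower in the oligodendrocytes, where 24.4% of all genes were higher and 29.6% lower. Itga6, the laminin-binding integrin subunit that pairs with Cd151, averaged 1359 ± 431 in control oligodendrocytes and 178 ± 95.7 in progenitors (SD, n = 4 each), a difference of 2.98 (adjusted p = 0.000121 in limma). Itga7 differed by 2.75 (adjusted p = 0.000127), Itgb1 by 1.39 (adjusted p = 0.00843) and Cd44, the hyaluronan receptor, by 3.82 (adjusted p = 0.000853) in the same limma fit. Without progenitor replicate 2 the value of Cd44 was 2.89, and without replicates 1 and 4 it was 4.68. The value of Itgb1 without replicates 1 and 4 was 0.72, and its call was lost (adjusted p = 0.06 in limma). The kinase Prkcb differed by -1.80 (adjusted p = 2.22e-05) and Ptgfrn by -0.83 (adjusted p = 0.0354) in limma, both lower in control oligodendrocytes. The call of Ptgfrn was kept in 14 of 21 alternatives, and without control replicate 3 its value was -0.48 (adjusted p = 0.06 in limma). Cldn11 was higher by 2.06 (adjusted p = 0.00038 in limma), and by 1.37 without progenitor replicates 1 and 4.

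Of 20 listed genes of endosomes and extracellular vesicles, where tetraspanins are enriched, 19 passed the filter. Between knockout and control oligodendrocytes 2 were higher in the knockout and none was lower in limma, where 3.64% of all genes were higher and 3.88% lower. At an unadjusted p under 0.05 in limma 4 were higher and none lower, a count without a share of all genes beside it. With the replicate block 4 were higher, where 2237 of all 10069 genes passed, 58.4% of them higher. The 2 of the main fit were the membrane scaffold Flot1, with a difference of 0.96 (adjusted p = 0.047, kept in 9 of 21 alternatives), and the endosomal GTPase Rab35, with 0.70 (adjusted p = 0.0404, kept in 13 of 21). Between control oligodendrocytes and progenitors 5 were higher and 2 lower in the oligodendrocytes, a share of higher genes close to the 24.4% of all genes. The higher ones included the annexin Anxa2 (2.67, adjusted p = 0.000143), the GTPase Rab27b (2.53, adjusted p = 0.0027) and the lysosomal protein Lamp1 (1.00, adjusted p = 4.04e-05) in limma. The sphingomyelinase Smpd3 differed by -1.26 (adjusted p = 0.00517) and Rab35 by -0.72 (adjusted p = 0.00431).

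Over the 11 arrays, which fall into 3 groups that share culture conditions within a group, the genes whose log2 signals followed each tetraspanin most closely were listed as a description. Tspan2 was followed most closely by Sptlc1 (Pearson r = 0.989), Nkiras1 (0.988) and Prickle1 (0.986). Cd82 was followed by Fa2h (0.988), Dynll2 and Pdk2 (both 0.984), and Cd9 by Bsg (0.989). For Cd81 the closest was Prxl2b (0.975), for Cd151 Bmpr1a (0.975) and for Tspan3 Prph (0.933).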

How the data were processed

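The members and the gene lists were chosen with earlier results of these data known. Groups were taken from the sample titles. Per the submitters' processing notes, GCOS 1.3 and MAS5 gave a value per probe set, and the deposited values are signal intensity on a linear scale, scaled by the authors to a target of 500 per array, per the labels. The trimmed mean was 500 on every array, medians were 60.5 to 80.4, and a signal of 200 was reached by 15100 to 17130 probe sets an array. The number of arrays limits the precision. Pearson r between replicates was 0.962 to 0.973 for knockout oligodendrocytes, 0.936 to 0.977 for control oligodendrocytes and 0.844 to 0.975 for progenitors.

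Of 45101 probe sets 34958 carried 1 gene symbol, 932 carried several and named no gene, and 9211 were unnamed. Control probe sets were left out. Entrez identifiers gave current symbols for 34741 probe sets. Those with a signal of 200 or more on at least 3 arrays were kept, 17121 in all, and for each of 10069 genes the brightest of them by mean log2 signal was used. The values log2(signal + 16) of all 11 arrays were fitted in limma 3.58.1 (R 4.3.3) with a mean per group and an intensity trend, and p-values were adjusted by Benjamini-Hochberg over all genes, or over all probe sets, with a threshold of 0.05. Fold values are fitted differences. Signals of different probe sets are not compared with each other.

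Named were the 8 members, up to 4 genes in each direction per list between knockout and control oligodendrocytes, up to 3 between control oligodendrocytes and progenitors, and the 3 closest in Pearson r per member, of which not all are printed. Itgb1, Cldn11 and Adam10 are named as known partners and fall outside that rule. Alternatives were other pseudocounts (1 and 64), no filter and a stricter one (500), quantile normalization, no variance trend, only the compared groups, the mean over probe sets, a replicate block and leaving out arrays. The block fit used only the compared groups and the replicate numbers found in both. In comparisons with the knockout it thus left out replicate 4 of the other group.

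Knockout and control arrays share replicate numbers. The deviations of same-numbered arrays from their group means correlated at 0.242, 0.241 and 0.214, so blocked values that change a call are printed for the main results, though not for every gene. In tests on simulated data with 10069 genes, 93%, 97% and 94% of genes changed by a log2 of 2 were recovered in the 3 comparisons (knockout against control, control against progenitors, knockout against progenitors), and 47%, 48% and 47% at a log2 of 1. Of the simulated calls 6.04%, 6.45% and 6.62% were false. The simulated noise was normal with 1 spread per gene in every group, and 200 genes were changed. In the data more genes passed and the progenitor arrays scattered more, so these rates need not hold there. Promoter windows came from a RefSeq table on GRCm38.p6.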

Additional observations from a re-analysis of the deposited data

How the results depend on the processing

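Among the genes and probe sets recomputed under each alternative none changed its direction. The share of higher genes among the calls did shift. Between knockout and control oligodendrocytes 48.4% became 58.4% with the replicate block and 52.6% with only these groups. With the mean of probe sets 45.2% became 50.9% between control oligodendrocytes and progenitors, and 47.1% became 53.6% between knockout oligodendrocytes and progenitors. The median over all genes, which lies near 0, did change sign: between knockout and control oligodendrocytes 0.03 became -0.0011 with quantile normalization, between control oligodendrocytes and progenitors -0.09 became 0.0017 with no filter and 0.0056 with the mean of probe sets, and between knockout oligodendrocytes and progenitors -0.05 became 0.06 with the mean of probe sets. Between knockout and control oligodendrocytes 758 genes passed in limma, 1587 with only these groups in the fit, 2237 with the replicate block, and 374 to 1323 when single arrays were left out. The lowest count came without knockout replicate 2 and the highest without progenitor replicate 2. Of the 6 tetraspanins 1 passed in that comparison, 0 with a pseudocount of 1, with no filter or with no variance trend (adjusted p of Tspan2 0.0527, 0.0565 and 0.052), 2 with the replicate block, and 0 to 1 when single arrays were left out. Between knockout oligodendrocytes and progenitors 5098 genes passed, 3091 with the replicate block and 3951 to 5917 when single arrays were left out, and between control oligodendrocytes and progenitors 5433, and 4616 to 6119 when single arrays were left out. Of the tetraspanins 4 to 6 passed between knockout oligodendrocytes and progenitors and 3 to 5 between control oligodendrocytes and progenitors. The cause of these changes was not tested. Against progenitors the deviations of same-numbered arrays correlated at -0.07 to 0.19 for control and -0.12 to 0.03 for knockout oligodendrocytes. Whether the numbers pair these arrays is not known, since the labels do not say. Between knockout oligodendrocytes and progenitors the block ended the call of Tspan3 (adjusted p = 0.172 in limma). In limma over probe sets it also ended those of Cd82 on 1416401_at (adjusted p = 0.0509) and Tspan2 on 1424568_at (0.0858). Between control oligodendrocytes and progenitors it ended the call of Ptgfrn (adjusted p = 0.0983 in limma). Dim probe sets limit what can be seen: 1 of Cd82 and 2 of Cd151 did not pass the filter.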
